A study of Mus musculus with 6 samples.

Results

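Short H2Bub clusters were stretches of 2 to 10 kb in which at least 2 peaks of the myoblast list lay within 3 kb of each other. H2Bub is histone H2B carrying a single ubiquitin, and it was mapped in C2C12, a mouse myoblast line that leaves the cell cycle and fuses into myotubes when serum is withdrawn. Peaks of the myoblast list on chromosomes 1 to 19 and X were joined across gaps of up to 3000 bp, which gave 19877 stretches. Of these, 6221 (31.3%) had the length and the number of peaks that define a short cluster. Reads were then counted inside each cluster and in the 5 kb on either side, called its flanks. The members were thus chosen on values of the myoblast libraries, and what those libraries show inside the clusters is a description and not a test.

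The myoblasts (MB) were proliferating cells in DMEM with 10% fetal bovine serum, collected at about 40% confluency. The myotubes (MT) had been grown to confluence, moved to DMEM with 2% horse serum, fed again after 2 days and collected after 4 days (96 h). Each group had 3 libraries, made from chromatin digested with micrococcal nuclease and mostly cut to mononucleosomes, and precipitated with the H2Bub antibody clone 56. No genetic change is named for either group, and the labels write both C2C12 and C1C12 for the line. Whether the libraries of a group came from different cultures is not stated, and a p-value here reflects library-to-library spread, which may be technical. In the limma voom tests of single clusters, that spread was estimated in part from all features together. Growth state, serum and differentiation changed together between the groups and cannot be told apart.

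Ubiquitin is placed on H2B by the E3 ligase pair RNF20 and RNF40, which travels with elongating RNA polymerase II through the PAF1 complex. The mark therefore lies mainly along the bodies of transcribed genes, and deubiquitylating enzymes remove it continually. Its level along a gene tends to follow how strongly that gene is transcribed. In a short cluster the mark covers a few kilobases, against the far greater extent of a long domain.

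The libraries held between 8767810 and 15903500 reads, with 0 repeated positions on a strand within a library. Outside peaks the myotube libraries were denser: tiles of 5 kb with no peak nearby had a density of 0.209 ± 0.0201 RPKM (reads per kb per 1000000 reads of the library) in myoblasts and 0.358 ± 0.0120 in myotubes (SD, n = 3 libraries each). MT replicate 2 stood apart from the other myotube libraries in many of the values below, with the lowest density in the clusters and the highest in these tiles. All positions are on genome build mm9. No gene annotation or sequence of that build was used here, so the clusters are given by position only.

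The clusters were small groups of narrow peaks. Their median length was 4542 bp, with quartiles of 3075 and 6744 bp, and they held a median of 4 peaks and at most 16. There were 938 clusters of exactly 2 peaks and 501 of 10 or more. The median peak was 319 bp wide and the median gap between neighbours 440 bp, so that 40.8% of the 31.3 Mb spanned lay in peaks. The clusters together held 31929 of the 191324 myoblast peaks (16.7%) and 12.3% of the peak bases. Of them, 2004 were joined over a gap of more than 2 kb. The nearest other stretch was close, at a median of 4793 bp, and 3276 clusters had a myoblast peak within a flank.

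Inside the clusters the read density stood well above the flanks in myoblasts and slightly above them in myotubes. Myoblast libraries 1 to 3 had 1.46, 1.67 and 1.47 RPKM inside the clusters, and 0.705, 0.784 and 0.741 in the flanks. Myotube libraries 1 to 3 had 0.639, 0.536 and 0.644 inside, and 0.497, 0.448 and 0.509 in the flanks. The ranges of the groups did not overlap for either measure, and both the clusters and their flanks were less dense in every myotube library. Densities are shares of each library's reads. Fewer marked cells, less mark per cell and a weaker enrichment in the precipitation thus cannot be told apart. Peak-free tiles took 10.5% of the myoblast reads and 18.1% of the myotube reads. The density inside over that in the flanks was 2.07, 2.13 and 1.99 in myoblasts, a mean of 2.06 ± 0.0680 (SD, n = 3). In myotubes this ratio was 1.29, 1.20 and 1.27, a mean of 1.25 ± 0.0469 (SD, n = 3). The clusters took 4.57%, 5.21% and 4.61% of the myoblast reads and 2.00%, 1.68% and 2.02% of the myotube reads. A cluster held a median of 55 to 95 reads in a myoblast library and of 22 to 41 in a myotube library, which limits what can be said of any single cluster in myotubes.

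Against the peak-free tiles, which lie farther away, the clusters and their surroundings were both enriched. In myoblasts the clusters stood at 6.79, 8.96 and 6.56 times the peak-free density and the flanks at 3.28, 4.22 and 3.30 times. In myotubes the clusters stood at 1.82, 1.44 and 1.84 times and the flanks at 1.41, 1.20 and 1.45 times. The flanks of the clusters thus carried reads above the peak-free level in all 6 libraries. By edge position, the first 250 bp inside a cluster had the highest density of the 250 bp bins, at 9.00, 11.9 and 8.84 times the peak-free density in myoblasts and 2.23, 1.82 and 2.24 times in myotubes. The peaks that end a cluster lie there by construction. In myoblasts the density outside fell to its lowest between 2 and 3 kb from the edge and was higher again beyond 3 kb, where the joining rule lets the next stretch begin. The myotube libraries were lowest nearer to the edge, between 1 and 2 kb, and their density went from 1.56, 1.25 and 1.58 times the peak-free density in the first 250 bp outside down to 1.33, 1.14 and 1.39 times at 1375 bp.

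**Figure D1:**
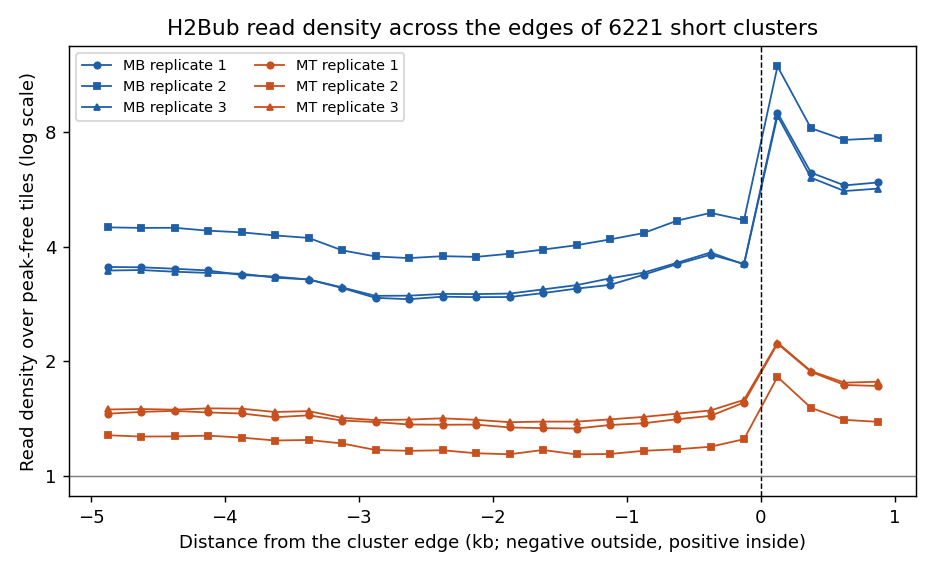
Read density by distance from the edges of the 6221 short clusters, in bins of 250 bp, with left and right edges pooled (x axis, kb; y axis, density divided by that of peak-free tiles, log scale). Each line is a library; the myoblast lines lie above the myotube lines at each distance, and all 6 step up at the edge, to between 8.84 and 11.9 inside in myoblasts and between 1.82 and 2.24 in myotubes.

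In the myotube libraries, which played no part in choosing the clusters, the excess over the flanks could be tested. The log2 density inside was set against that in the flanks with limma voom, with the library as a block, over all joined stretches, stretches of myotube peaks and peak-free tiles together. Of 6217 clusters with enough reads, 1804 (29.02%) were denser inside at a Benjamini-Hochberg adjusted p under 0.05, and 26 (0.418%) were less dense. Over all 109489 features tested, 14.2% were denser and 9.16% less dense. The peak-free tiles gave 10.7% and 10.5%, so a call in either direction was common outside the clusters, whereas the calls of the clusters lay almost wholly on the denser side. The median log2 difference was 0.30 over the clusters, 0.08 over all features and 0.03 over peak-free tiles. A value above 0 was found in 5109 clusters, and more than 50% of the tiles also had one. The middle 50% of the clusters lay between 0.08 and 0.56, with a median standard error of 0.20 for a single cluster. Input libraries were not analysed, and mappable positions inside and in the flanks were not compared. Their part in this excess was not tested.

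The number of calls rested on the deepest myotube library. Without MT replicate 3, 488 clusters (7.85%) were called denser, against 3.18% of all features. Without MT replicate 1 there were 1207 (19.4%, against 9.71% of all features), and without MT replicate 2 there were 1662 (26.7%, against 12.0%). The ratio of inside to flanks itself hardly moved, since it lay between 1.23 and 1.28 with any myotube library left out. A cluster that was not called is therefore not shown to lack an excess.

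**Figure D2:**
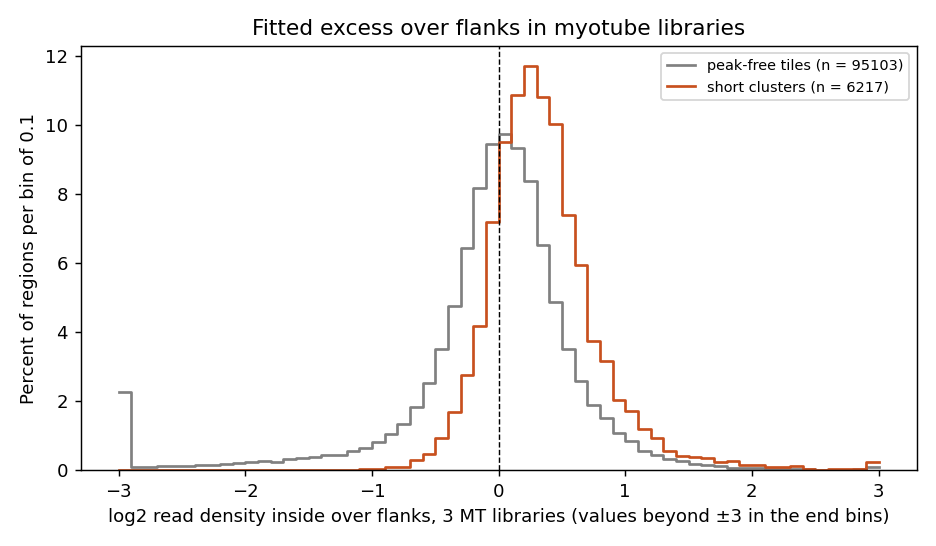
Distribution of the fitted log2 density inside over flanks in the 3 myotube libraries (x axis; y axis, percent of regions in each bin of 0.1) for 6217 short clusters and 95103 peak-free tiles. The clusters are shifted to the right of 0, with a median of 0.30, while the tiles centre near 0 with long tails on both sides; values beyond 3 in either direction are drawn in the end bins.

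Within the clusters, the excess seen in myotubes lay in the bases of the myoblast peaks and hardly in the gaps between them. Peak bases of the clusters had 2.35, 2.69 and 2.36 RPKM in myoblasts and gap bases 0.852, 0.960 and 0.863, a ratio of 2.77 ± 0.0339 (SD, n = 3). This is the contrast that defined the peaks. In myotubes the same peak bases had 0.813, 0.660 and 0.815, and the gap bases 0.520, 0.451 and 0.527, a ratio of 1.52 ± 0.0531 (SD, n = 3). All 3 myotube libraries were thus denser in bases that had been called as peaks in the other cell state. Input libraries were not analysed, and the part of mappable positions in this ratio was not tested. The gaps exceeded the flanks by 1.20 ± 0.0305 times in myoblasts and by 1.03 ± 0.0210 times in myotubes (SD, n = 3 each). In MT replicate 2 the gaps stood at 1.01 times the flanks. Of the reads inside clusters, 65.6% ± 0.276 fell in peak bases in myoblasts and 51.2% ± 0.878 in myotubes, where peak bases made up 40.8% of the span.

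Clusters more fully covered by myoblast peaks had a larger excess in the myotube libraries. The 623 clusters with under 20% of their span in peaks had ratios of inside to flanks of 1.11, 1.08 and 1.10 in myotube libraries 1 to 3. The 2984 clusters with 20 to 40% had 1.18, 1.15 and 1.17, and the 1702 with 40 to 60% had 1.34, 1.25 and 1.32. The 912 clusters with 60% or more had 1.68, 1.39 and 1.62. The order of these classes was the same in each of the 3 myotube libraries, and the ranges of neighbouring classes did not overlap. The share of clusters that passed the test for a denser inside was 11.4%, 19.2%, 35.4% and 61.1% from the least to the most covered class. It was 14.2% over all features tested and 10.7% over peak-free tiles, so the least covered class was near the background. The most covered class also had the emptiest flanks, at 1.22 ± 0.125 times the peak-free density in myotubes against 1.45 ± 0.118 for the least covered (SD, n = 3). In myoblasts, where coverage was defined, the ratio went from 1.36 ± 0.0176 to 3.65 ± 0.244.

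Length and number of peaks went with smaller differences. The ratio in myotubes was 1.23 ± 0.0165 for clusters of 2 to 3 kb and 1.29 ± 0.0679 for those of 7 kb or more (SD, n = 3). In myotube libraries 1 to 3 it was 1.25, 1.22 and 1.23 in the shorter class and 1.34, 1.21 and 1.31 in the longer. The longer class was thus higher in MT replicates 1 and 3 but not in MT replicate 2. The share called denser was 22.8% in the shortest class and 35.7% in the longest, against 14.2% of all features tested. The median log2 difference was 0.31 and 0.32 in these classes. Longer clusters hold more reads, and the part of read number in the share called was not tested. By number of peaks, the median log2 difference was 0.20 for clusters of 2 peaks, 0.28 for 3 to 4, 0.32 for 5 to 7 and 0.40 for 8 or more.

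**Figure D3:**
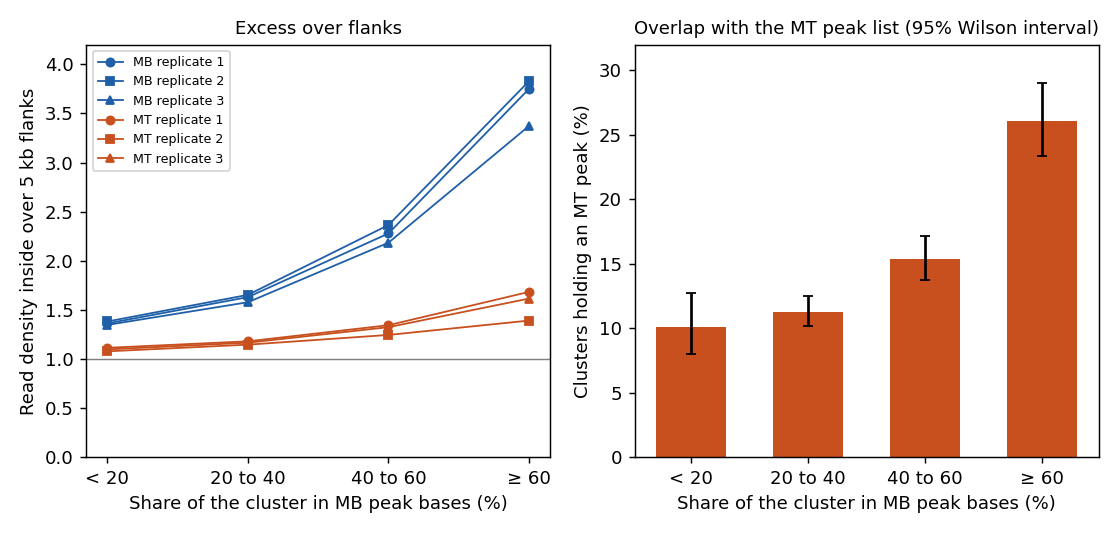
Left, read density inside over 5 kb flanks in each library (y axis) by the share of a cluster that lies in myoblast peak bases (x axis, percent); right, percent of clusters in the same classes that hold a myotube peak, with 95% Wilson intervals. Both are higher at higher coverage: the myotube ratios go from between 1.08 and 1.11 to between 1.39 and 1.68, and the share with a myotube peak from 10.1% to 26.1%.

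Set beside other stretches of myoblast peaks, the short clusters had a low excess in myotubes over their whole span, gaps included. The mean log2 ratio of inside to flanks over the 3 myotube libraries was 0.32 for short clusters, 0.60 for single peaks, 0.40 for domains of 10 to 20 kb and 0.59 for domains of 50 kb or longer. The short clusters were lower than single peaks by 0.24 to 0.34 in each library, than domains of 10 to 20 kb by 0.02 to 0.12, and than the longest domains by 0.08 to 0.39. Each difference had the same sign in 3 of 3 libraries, and each gave p = 0.25 in an exact two-sided permutation test over libraries (adjusted over the 3 comparisons, 0.25). That is the smallest p that 3 pairs allow, so the design could not pass a threshold of 0.05. Single peaks hold no gap bases, whereas peak bases made up 40.8% of the span of short clusters, so these spans are unlike. In myotubes the peak bases of short clusters had 0.762 ± 0.0888 RPKM beside flanks of 0.484 ± 0.0323 (SD, n = 3). Single peaks had 0.773 ± 0.0424 beside flanks of 0.510 ± 0.0278 (SD, n = 3).

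**Figure D4:**
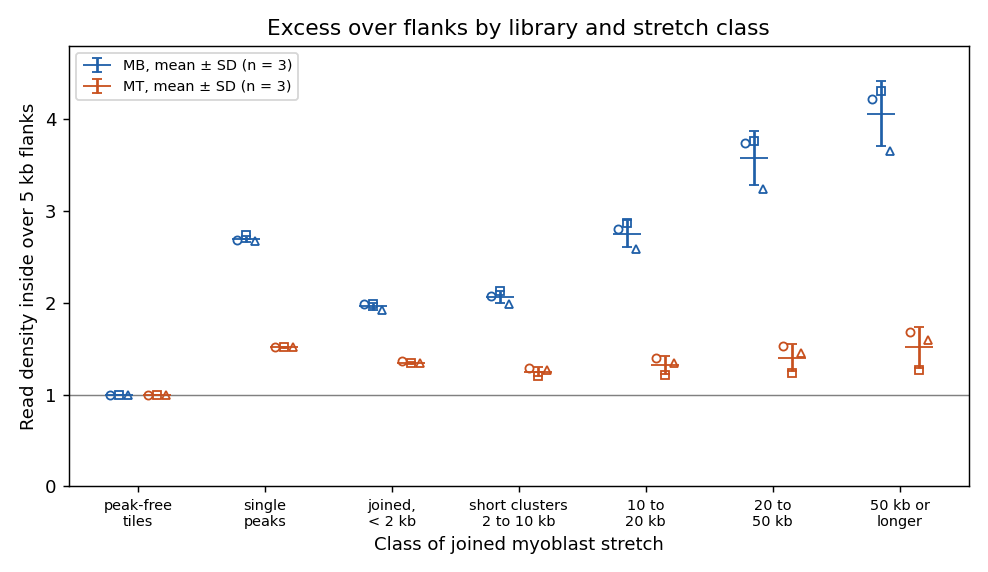
Read density inside over 5 kb flanks (y axis) for peak-free tiles and 6 classes of joined myoblast stretch (x axis); open symbols are libraries (circle, replicate 1; square, replicate 2; triangle, replicate 3) and bars the mean ± SD of 3. Short clusters had means of 2.06 in myoblasts and 1.25 in myotubes, and in myotubes the 3 library values lie below those of single peaks, which hold no gap bases.

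Just inside and just outside the length limits the values were as follows. The 144 clusters less than 100 bp above the lower limit had a ratio of inside to flanks of 1.74 ± 0.0250 in myoblasts and 1.25 ± 0.0160 in myotubes (SD, n = 3). The 124 joined stretches less than 100 bp below it had 1.78 ± 0.0710 and 1.31 ± 0.00907, and their myotube values lay above those of the clusters in all 3 libraries. The 188 clusters less than 500 bp below the upper limit had 2.54 ± 0.136 and 1.32 ± 0.0855. The 200 stretches less than 500 bp above it had 2.30 ± 0.106 and 1.28 ± 0.0360, and were lower than those clusters in each myoblast library.

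Between the groups, the clusters were lower in myotubes by a median log2 fold change of -1.22 at total-read scaling. The quartiles were -1.52 and -0.92, and the values ran from -3.44 to 0.08. At this scaling 4302 clusters were at -1 or lower, 327 at -2 or lower, and 4 were above 0. In 5802 clusters every myoblast library was denser than every myotube library, and in 0 was every myotube library denser. Over all 93756 features with enough reads, 14.1% had myoblast libraries all above myotube libraries. By limma voom 5961 of 6221 clusters were lower in myotubes and 0 higher at an adjusted p under 0.05, where 14.2% of all features were lower and 57.7% higher. The clusters were chosen as enriched in myoblasts, so nothing is read from these counts. Scaling on 10 kb windows of the whole genome moved the median of the clusters to -1.92 and the count to 6216. With that scaling 17.4% of all features were lower and 1.17% higher, so the 57.7% holds for total-read scaling alone.

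Clusters with more myoblast peaks had lower fold changes, which is again a description. The median log2 fold change was -0.91 for clusters of 2 peaks, -1.10 for 3 to 4, -1.28 for 5 to 7 and -1.54 for 8 or more. It was -0.88 below 20% peak coverage and -1.69 at 60% or more. The most covered clusters thus had both the lowest fold changes and the largest excess left over their flanks in myotubes.

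Of the 6221 clusters, 900 (14.5%, 95% Wilson interval 13.6 to 15.4%) overlapped a peak of the myotube list. Of these, 710 held 1 myotube peak, 140 held 2 and 50 held 3 or more, with at most 9. The list is a single set for the group, so these counts have no replicate error, and the interval covers counting only. Counting only myotube peaks in the upper 50% by width, 492 clusters (7.91%) remained. Myotube peaks inside clusters had a median width of 275 bp, against 276 bp in the whole list, and numbered 1188 of its 25743 peaks (4.62%). Per 100 kb, short clusters held 3.80 myotube peaks, single peaks 7.05, domains of 10 to 20 kb 5.03 and domains of 50 kb or longer 13.9.

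The myotube peaks sat mostly on myoblast peaks. Of the 1188, 993 (83.6%) overlapped a myoblast peak and 195 lay in gaps. By bases, 69.1% of the myotube peak bases lay in myoblast peaks, which made up 47.4% of the span of the clusters concerned. The widest myoblast peak of a cluster overlapped a myotube peak in 314 of the 900 clusters (34.9%), and that peak made up 14.5% of their span and 30.5% of their myoblast peak bases. The share of clusters with a myotube peak was 7.56% at 2 to 3 kb and 25.4% at 7 kb or more, while the number per 100 kb was 3.36 and 4.45. By coverage it was 10.1%, 11.3%, 15.4% and 26.1% from the least to the most covered class, and 2.49 and 7.50 peaks per 100 kb at the ends.

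Clusters with a myotube peak had a larger excess over their flanks in both groups. In the myotube libraries, from which the myotube peaks come, the ratio was 1.45, 1.28 and 1.43 with such a peak and 1.24, 1.18 and 1.22 without. In the myoblast libraries, which that list does not use, it was 2.51, 2.56 and 2.33 with and 1.99, 2.04 and 1.92 without. The ranges did not overlap in either group. The clusters with a myotube peak were also longer, with a median of 6219 bp against 4327 bp.

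In myoblasts the flank of a cluster was denser on the side of a neighbouring long domain, and in myotubes the sides were nearly alike. The domains were built from myoblast peaks and can begin just over 3 kb from a cluster. The facing 5 kb flank can thus hold part of a domain, so the myoblast values are a description and not a test. For 1804 clusters a domain of 10 kb or longer lay within 10 kb. In these, the flank facing the domain had 1.22, 1.22 and 1.18 times the density of the flank facing away in myoblast libraries 1 to 3. In myotube libraries 1 to 3 it had 1.00, 0.977 and 0.998 times. The flanks of these clusters stood at 4.03 ± 0.657 times the peak-free density in myoblasts, against 3.26 ± 0.482 where the nearest domain was 250 kb or more away (SD, n = 3). In myotubes these values were 1.35 ± 0.138 and 1.28 ± 0.107. The flanks near a domain were denser than those farthest away in each of the 6 libraries, although the SDs overlapped. In myotubes the order was not steady with distance: clusters with a domain at 10 to 50 kb had the densest flanks, at 1.45, 1.23 and 1.48 times the peak-free density against 1.42, 1.19 and 1.44 times under 10 kb. The ratio of inside to flanks in myotubes was 1.27 ± 0.0385 near a domain and 1.29 ± 0.0764 far from one.

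The fold changes of the clusters varied between chromosomes, a difference that was not tested. The median log2 fold change was -0.87 for the 295 clusters of chromosome 15 and -1.07 for the 340 of chromosome 10, against -1.52 for the 319 of chromosome 7 and -1.48 for the 345 of chromosome 9. The share of clusters with a myotube peak was also highest on chromosomes 15 and 10, at 32.5% and 25.6%. It was 3.76% on chromosome 7, 5.80% on chromosome 9 and 4.32% on X, where the median log2 fold change was -1.28. Between these ends the orders parted. Chromosome 8 had 20.4% with a median log2 fold change of -1.18, and chromosome 1 had 13.4% with -1.115. The peak-free tiles of chromosomes 7, 9, 10 and 15 also differed. Relative to all peak-free tiles, chromosome 10 had a density of 1.12 ± 0.0186 in myoblasts and 1.21 ± 0.0160 in myotubes, and chromosome 9 had 1.02 ± 0.0228 and 0.928 ± 0.0124 (SD, n = 3), with no overlap of libraries. Chromosome 15 was dense in both groups, at 1.23 ± 0.0365 and 1.28 ± 0.0179, and chromosome 7 sparse in both, at 0.786 ± 0.0391 and 0.763 ± 0.0236. Across the 20 chromosomes the shift of the peak-free tiles and the median fold change of the clusters had a Spearman correlation of 0.68. The same shift had one of 0.32 with the share of clusters holding a myotube peak and of 0.13 with the median excess over flanks in myotubes. The points share the same 6 libraries.

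The differences between chromosomes were somewhat smaller when clusters were measured against peak-free tiles of their own chromosome. From pooled densities at total-read scaling, the log2 ratio of myotubes to myoblasts was -1.06 on chromosome 15, -1.21 on chromosome 10, -1.62 on chromosome 7 and -1.63 on chromosome 9, with an SD of 0.122 over the 20 chromosomes. Relative to peak-free tiles of the same chromosome, the same pooled ratio was -1.92, -2.11, -2.37 and -2.29, with an SD of 0.0900. The excess over the flanks in myotubes had medians of 0.29, 0.36, 0.33 and 0.24 on the log2 scale on these chromosomes, a narrow range. The part of chromosome-wide read density in the number of myotube peaks was not tested.

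**Figure D5:**
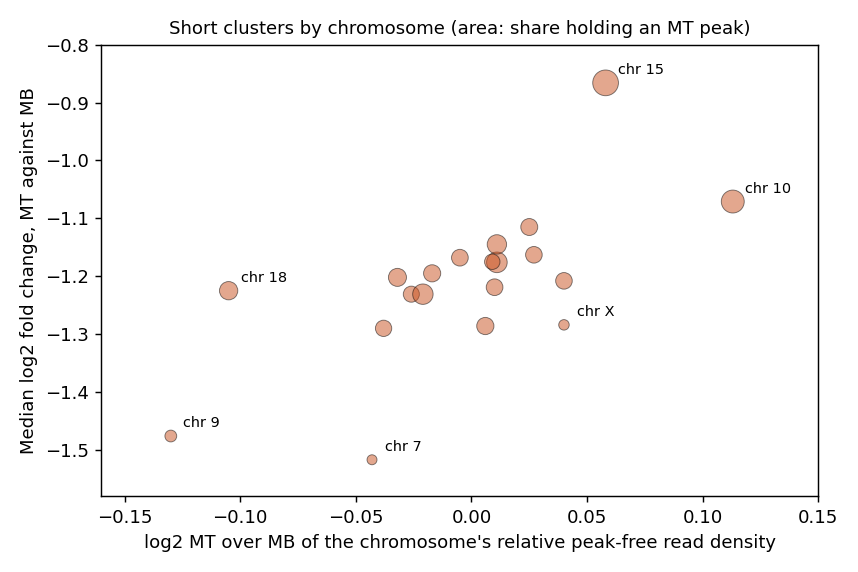
Median log2 fold change of short clusters, myotubes against myoblasts at total-read scaling (y axis), against the log2 ratio of the chromosome's peak-free density, each relative to all peak-free tiles (x axis); each point is a chromosome and its area grows with the share of clusters that hold a myotube peak. Chromosomes 10 and 15 lie at the upper right, with shares of 25.6% and 32.5%, and chromosomes 7 and 9 at the bottom, with 3.76% and 5.80%.

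Single clusters showed how far the members vary. The named ones were taken by rank from the 5114 clusters averaging 30 reads or more per library. The 5 with the largest excess over the flanks in myotubes all had nearly empty flanks in both groups. The first was the 8.20 kb cluster at chr13:18015699-18023896, with 6 myoblast peaks over 90.6% of its span. It had 5.95, 6.08 and 4.61 RPKM in myoblasts and 0.919, 0.449 and 0.751 in myotubes. Its 10 kb of flanks held 1, 4 and 4 reads in the myoblast libraries and 0, 0 and 0 in the myotube libraries. Against a floor of 3 reads over the 3 myotube libraries, the inside was at least 76.9-fold denser (limma voom adjusted p = 4.87e-20). These flanks lay below the peak-free density, which was 0.209 RPKM in myoblasts and 0.358 in myotubes. The fold is thus against these flanks and not against the peak-free level, beside which the inside averaged 0.706 RPKM in myotubes.

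The other 4 of these were chr15:35317701-35320737, chr17:13914584-13924161, chr5:46197950-46206360 and chr8:71192564-71200503. Their log2 differences in myotubes ran from 4.18 to 4.85, and their flanks held between 0 and 5 reads in a myotube library and between 4 and 16 in a myoblast library. How many positions of these flanks can be mapped was not tested. In all, 49 of the 6217 tested clusters had under 50 flank reads over the 3 myotube libraries, where the median was 159, and 48 of them were called denser. Without these 49, a limit set after the values were seen, 1756 of 6168 clusters (28.5%) were called.

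Among clusters with at least 50 flank reads, the largest excess in myotubes belonged to chr1:17058991-17061542, singled out after the values were seen. It also had the highest fold change of the 5114. This 2.55 kb cluster of 4 myoblast peaks held 4 myotube peaks over 2190 bp. Its density was 2.15, 1.98 and 1.60 RPKM in myoblasts and 2.46, 1.10 and 2.63 in myotubes. Myotube libraries 1 and 3 lay above all myoblast libraries and MT replicate 2 below them, so the groups overlapped. The log2 fold change was 0.05 (SE 0.23), and the log2 excess over flanks 3.14 (SE 0.20, limma voom adjusted p = 2.11e-17) in myotubes and 2.99 in myoblasts.

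The next in fold change were chr3:55080113-55083651, chr15:72723446-72726948, chr15:32927956-32931408 and chr15:72634415-72637588, with log2 fold changes of 0.03, 0.03, -0.01 and -0.06, so that 3 of the 5 were on chromosome 15. At chr15:32927956-32931408 the density was 0.998, 1.55 and 0.912 in myoblasts and 1.39, 0.972 and 1.02 in myotubes, with overlapping groups. Its flanks were less dense in myotubes, at 0.217, 0.130 and 0.249 against 0.420, 0.534 and 0.346. The log2 excess over flanks was 2.41 (SE 0.22) in myotubes and 1.41 in myoblasts. At chr3:55080113-55083651 the inside had 1.74, 0.612 and 1.35 RPKM in myotubes and the flanks 1.46, 0.541 and 1.59, both lowest in MT replicate 2, and the log2 excess was 0.04 (SE 0.17).

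The lowest fold changes were found at chr12:66267931-66272679 (-3.44, SE 0.29), chr5:86486893-86492855 (-3.10, SE 0.29), the chromosome 13 cluster above (-3.01, SE 0.22), chr9:100979017-100988945 (-2.96, SE 0.25) and chr8:4764233-4769642 (-2.94, SE 0.26). At the first, 8 myoblast peaks gave 2.56, 2.95 and 2.45 RPKM in myoblasts, and the myotube libraries had 0.313, 0.296 and 0.175. Its flanks had 0.206, 0.238 and 0.194 RPKM in myotubes, a log2 difference from the inside of 0.26 (SE 0.29, limma voom adjusted p = 0.577). The cluster on chromosome 9, 9.93 kb long and 88.3% in peaks, had 6.61, 7.38 and 5.13 RPKM in myoblasts and 1.25, 0.305 and 1.34 in myotubes. It held 2 myotube peaks and stood above its flanks by 2.34 (SE 0.22, limma voom adjusted p = 1.72e-12) on the log2 scale in myotubes. The clusters with the lowest fold changes thus included some that did not differ detectably from their flanks in myotubes and others well above them.

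The smallest excess over flanks in myotubes was at chr1:62778229-62782663, chr2:37933312-37937700, chr6:50512825-50516092, chrX:101683992-101692742 and chr12:103713754-103718334. All 5 were less dense inside than in the flanks, with log2 differences from -0.96 to -0.70 and limma voom adjusted p from 4.44e-04 to 0.0238. None held a myotube peak. At chr6:50512825-50516092 the order turned between the groups: the inside had 1.02, 1.46 and 1.33 RPKM in myoblasts, above flanks of 0.635, 0.572 and 0.497. In myotubes it had 0.384, 0.265 and 0.339, below flanks of 0.514, 0.584 and 0.677. None of these 5 calls held without MT replicate 3, where the adjusted p lay between 0.0887 and 0.261. The call on chromosome 6 was also lost without MT replicate 2 (adjusted p = 0.0636), and that on chromosome 12 without MT replicate 1 (adjusted p = 0.0889). When gaps of only up to 2 kb were joined, the cluster on chromosome 2 shrank to 2.03 kb with a log2 difference of -0.12 (adjusted p = 0.810). The cluster on X shrank to 3.47 kb with -0.61 (adjusted p = 0.118).

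The clusters with the most myoblast peaks were chr3:137734525-137744346 and chr9:7180733-7190631, with 16 each, and chr2:156690368-156699855, with 15. Their log2 fold changes were -1.42, -1.80 and -2.17. Of the 3, the chromosome 9 cluster was denser than its flanks in myotubes (1.09, SE 0.19, limma voom adjusted p = 1.64e-05), and the other two had values of 0.38 and 0.40 that did not pass the test. Without MT replicate 3 the chromosome 9 cluster had an adjusted p of 0.0614. Without MT replicate 2 the other two passed, with 0.47 (adjusted p = 0.0307) on chromosome 3 and 0.57 (adjusted p = 0.0133) on chromosome 2.

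The most myotube peak bases were found at chr10:96082251-96089759 (7 peaks, 3345 bp), chr13:9510463-9517512 (8 peaks, 3060 bp) and chr10:39223389-39230205 (6 peaks, 2935 bp). At the first the density was 1.51, 1.99 and 1.84 in myoblasts and 1.83, 0.778 and 1.76 in myotubes, and at the third 1.31, 1.43 and 1.57 against 1.83, 0.667 and 1.74. In all 3 clusters MT replicate 2 lay below the myoblast libraries, while MT replicates 1 and 3 lay within or above their range. The log2 fold changes were -0.38, -0.38 and -0.15. The third had flanks of 1.66, 0.682 and 1.56 RPKM in myotubes, and its log2 excess over them, 0.10 (SE 0.15), did not pass the test. With myoblast and myotube peak bases masked in the flanks, that excess was 0.73 (limma voom adjusted p = 6.49e-04). The inside kept its myotube peaks, which come from the same libraries and by which the cluster was picked. Such masking raises the excess by construction, so nothing is read from this value.

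The order of clusters by excess over flanks was shared more closely among myoblast libraries than among myotube libraries. Over the 6221 clusters, Spearman correlations of this ratio were 0.81 to 0.84 between myoblast libraries, 0.39 to 0.48 between myotube libraries and 0.31 to 0.52 between the groups. The fitted log2 values of the groups had a Spearman correlation of 0.57 over 6217 clusters. These points share the number of mappable positions inside and in the flanks, and the myotube libraries have fewer reads per cluster.

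Nucleosome spacing in the clusters was poorly resolved. From the distances between reads on the same strand, it was 195, 198 and 195.5 bp in myoblasts and 199, 188.5 and 180.5 bp in myotubes, means of 196 ± 1.61 and 189 ± 9.28 bp (SD, n = 3). The difference of -6.83 bp gave p = 0.4 in an exact two-sided permutation test, where the smallest p with 3 libraries a group is 0.1. Each maximum was sought only in a fixed window around a preset spacing, so values near that spacing were partly built in. Taken from the first 2 maxima only, the means were 159 and 198 bp. The second maximum of MB replicates 2 and 3, at 335 bp, lay on the edge of its window, so none was found there. The value thus depends on how the maxima are read, and no spacing or difference in spacing is claimed.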

How the data were processed

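Per the file headers and contents, each library's deposited file lists mapped reads by chromosome, position and strand, and the authors gave 1 list of peak boundaries per group without scores. The build is mm9 per the submitters' processing notes; the sources used here do not give the aligner, filters, peak caller, its threshold or any pooling. The deposited read files held 0 repeated positions, so dense places are compressed, more so in deeper libraries. Input libraries were not analysed here. No column of another sample was used.

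Reads were counted here in all joined myoblast stretches, in stretches of myotube peaks alone and in 5 kb peak-free tiles set every 20 kb (none within 5 kb of a peak). Limma 3.58.1 in R 4.3.3 (voom, moderated two-sided test, Benjamini-Hochberg adjustment over all features, threshold 0.05) compared inside with flanks in the myotube libraries (length of at least 500 bp, at least 50 reads inside and in flanks together) and the groups (10 reads or more on average), scaled by total reads. Both fits were also run on simulated counts with equal rates for unchanged features. Real peak-free tiles were called against their flanks in both directions (10.7% and 10.5%), so nothing is read from that run. Single values per library were compared by exact permutation tests in SciPy 1.17.1. Named clusters averaged 30 reads or more per library: the 5 with the largest and the 5 with the smallest myotube excess, the 5 lowest and the 5 highest fold changes, the 3 with most myoblast peaks and the 3 with most myotube peak bases. The members, lists and rules were chosen with earlier results of these data known. Intervals cover counting error only.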

Additional observations from a re-analysis of the deposited data

How the results depend on the processing

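The share of clusters denser than their flanks in myotubes, 29.02%, lay between 22.0% and 32.3% with masked flanks, flanks from 1 kb away, flanks free of myoblast peaks, no library block, no floor on reads, limma-trend, shifted reads (75 bp and 29 bp toward the nucleosome centre) and gaps of 2 or 4 kb. Masked flanks leave out myoblast and myotube peak bases, which the inside keeps, so that setting favours a denser inside. With a myotube library left out the share lay between 7.85% and 26.7%, the lowest without MT replicate 3. Limiting the clusters to those with 50 or more myotube flank reads, chosen after seeing the data, gave 28.5%. The share lower in myotubes than in myoblasts, 95.8%, lay between 94.9% and 99.97% under the other settings, and between 90.76% and 95.02% with a library left out; background scaling without MT replicate 2, also chosen after seeing the data, gave 99.6%.

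Whether the replicate numbers pair the libraries could not be told. Same-numbered libraries had correlations of deviations of 0.07, 0.04 and 0.24, the last being the highest of any pair. MB replicates 2 and 3 correlated best with the myotube library of their own number, but MB replicate 1 did so with MT replicate 2 (0.12). The replicate block gave 5996 clusters lower (96.4%), and the replicate block with background scaling 6219.

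The myoblast ratio of inside to flanks, 2.06, moved to 2.22 with masked flanks, 2.50 with flanks free of myoblast peaks, 1.95 with gaps of up to 2 kb and 2.14 with gaps of up to 4 kb; that of myotubes stayed within 1 SD. The myoblast ratio of peak to gap bases, 2.77, moved to 2.26 with shifted reads. The share of clusters with a myotube peak moved from 14.5% to 7.91% with the wider 50% of the list and was 14.2% when 50% of the myotube peak had to lie inside. The spacing difference turned to 38.7 bp with the first 2 maxima (exact permutation p = 0.1). That value rests on window edges in MB replicates 2 and 3, so nothing is read from it. The difference was -3.67 bp with wider smoothing and lay between -11.7 and -2.42 bp with a library left out. The cause of these shifts was not tested. The differences between stretch classes kept their sign with masked flanks and with each myotube library left out. Of 17 named clusters past the threshold for their excess, 7 lost it under at least 1 of 12 settings, and 4 others passed it under at least 1. The 2 named clusters whose extent changed with the joining gap are left out of that setting. A median of 22 to 41 reads per cluster limits each single myotube value.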
